A study of Mus musculus with 96 samples.

Results

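The genes described here are 39 identity genes of the glial and vascular cells of the brain, followed through chromatin immunoprecipitation sequencing (ChIP-seq) of sorted mouse hippocampal nuclei. They comprise 14 oligodendrocyte lineage genes, 11 astrocyte genes, 8 microglia genes, 5 endothelial genes and Oaf, a gene of no cell class in this list. The study displays Oaf as its glial example when checking the chromatin of the sorted fractions. Members were found by gene symbol, so that a peak belongs to a member where the deposited annotation names that gene as the nearest one. Of the 22815 consensus peaks in 6 tables, 49 were assigned to a member, and 22 of the 39 genes had at least 1 of them. A consensus peak is a region called in at least 2 of the 3 replicates of a genotype.

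Nuclei came from the hippocampus of 6 months old male wild type (WT) mice, of mice lacking the DNA glycosylase Mutyh (Mutyh-/-) or Ogg1 (Ogg1-/-), and of mice lacking both (DKO, Ogg1-/- Mutyh-/-). Mutyh and Ogg1 are base excision repair enzymes that deal with oxidised guanine, and no restriction of the deletions to a cell type is given. The nuclei were sorted by the neuronal protein NeuN into NeuN+ and NeuN- fractions, each sample being a pool of 5 animals of the same genotype and C57BL/6N background, with 3 pools per genotype. Antibodies were directed to H3K4me3, H3K27me3 and Suz12, which gave 72 libraries in 6 tables of 12. No table says which glial or vascular cell a NeuN- nucleus came from, and fewer nuclei of a type cannot be told apart from less of a mark per nucleus.

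H3K4me3 is the mark of active or poised promoters, and it is broad and strong at promoters rich in CG dinucleotides. H3K27me3 is written by polycomb repressive complex 2 (PRC2), of which Suz12 is a core subunit, and it covers developmental genes in the cells that keep them silent. Neurons and the macroglia descend from the same progenitors, and the transcription factors that direct the oligodendrocyte lineage, such as Olig1, Olig2 and Sox10, are textbook examples of genes that PRC2 covers where they are not used. Microglia and endothelial cells come from other lineages and are a minority among brain nuclei.

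The values in the tables are reads in a peak divided by a factor of each library. Reads in peaks ranged from 96023 to 548706 per library for H3K4me3 in NeuN+ nuclei and from 39320 to 120004 in NeuN- nuclei, from 23794 to 52344 and from 19132 to 78250 for H3K27me3, and from 6652 to 33035 and from 11887 to 66148 for Suz12. In NeuN- libraries, between 20.6% and 73.8% of these reads fell in 1 peak annotated to Lrrc4c, with every antibody. The label only names the nearest gene, and what fills this peak was not tested. That peak held at most 46.9% of the reads in any NeuN+ library. Peaks with no read at all made up 6.24% to 40.8% of H3K27me3 peaks in NeuN- libraries and 0.222% to 4.20% of H3K4me3 peaks in NeuN+ libraries. Each table was scaled on its own, so values were tested only within a table, and fractions were set side by side by the percentile of a peak among the peaks of its own library.

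The sort was first checked against genes of the cell types. Rbfox3, which encodes NeuN, had 2 H3K4me3 peaks in NeuN+ nuclei and 0 in NeuN- nuclei, and 13 H3K27me3 peaks in NeuN- nuclei and 0 in NeuN+ nuclei. Of 18 neuronal genes, 15 had an H3K4me3 promoter peak in NeuN+ nuclei and 1 in NeuN- nuclei. By count alone, the glial and vascular genes did not show the mirror image. Of the 39, 11 had an H3K4me3 promoter peak in NeuN+ nuclei and 7 in NeuN- nuclei. A list of 46 further glial and vascular genes had 15 and 5. The NeuN- table was smaller, with 3270 peaks against 12628, and 96.1% of its 3018 genes with a promoter peak also had one in NeuN+ nuclei. Of the 11160 genes with a promoter peak in NeuN+ nuclei, 26.0% also had one in NeuN- nuclei, as had 5 of the 11 members. The share of the members was thus above that of all genes, but the members were chosen with earlier results known. Of the 15 further genes with such a peak in NeuN+ nuclei, only Ets1, Sall1, Slc4a4 and Tspan2 also had one in NeuN- nuclei. Neither share was tested.

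By cell class, the NeuN- H3K4me3 peaks lay at 3 oligodendrocyte lineage genes (Olig1, Sox8 and Ugt8a), 3 astrocyte genes (Slc1a2, Glul and Fgfr3) and Oaf. None of the 8 microglia genes and none of the 5 endothelial genes had an H3K4me3 peak in either fraction. Among the other microglia genes examined, Irf8 and Sall1 had promoter H3K4me3 in NeuN+ nuclei and Sall1 in NeuN- nuclei. The other 13 endothelial genes had it at Ets1, Kdr, Slc2a1 and Sox18 in NeuN+ nuclei and at Ets1 in NeuN- nuclei. The myelin genes Mog, Mobp, Mag and Mbp had no H3K4me3 peak in NeuN- nuclei, nor had the astrocyte genes Gfap, Aqp4, Aldh1l1 and Gja1. A gene without a consensus peak can still carry the mark at this depth, and the tables list no values outside peaks. By list, 3 of 14 oligodendrocyte members, 3 of 11 astrocyte members and 1 of 18 neuronal genes had an H3K4me3 promoter peak in NeuN- nuclei.

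The 17 members without a peak in any table were Mog, Mobp and Cspg4 of the oligodendrocyte lineage, Gfap, Aqp4, Aldh1l1, Gja1 and S100b of astrocytes, Cx3cr1, P2ry12, Csf1r, Aif1, Trem2 and Itgam of microglia, and Pecam1, Tek and Cdh5 of endothelium. Among the 22 with a peak were 11 of 14 oligodendrocyte genes, 6 of 11 astrocyte genes, 2 of 8 microglia genes (Tmem119 and C1qa, each with a single peak away from its promoter), 2 of 5 endothelial genes and Oaf. H3K27me3 promoter peaks were found at 10 members in NeuN+ nuclei, of 1047 genes with such a peak, and at 4 in NeuN- nuclei, of 786 genes. Suz12 peaks were found at 4 members in NeuN+ nuclei and at none in NeuN- nuclei, where the whole table held 312 peaks.

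**Figure D1:**
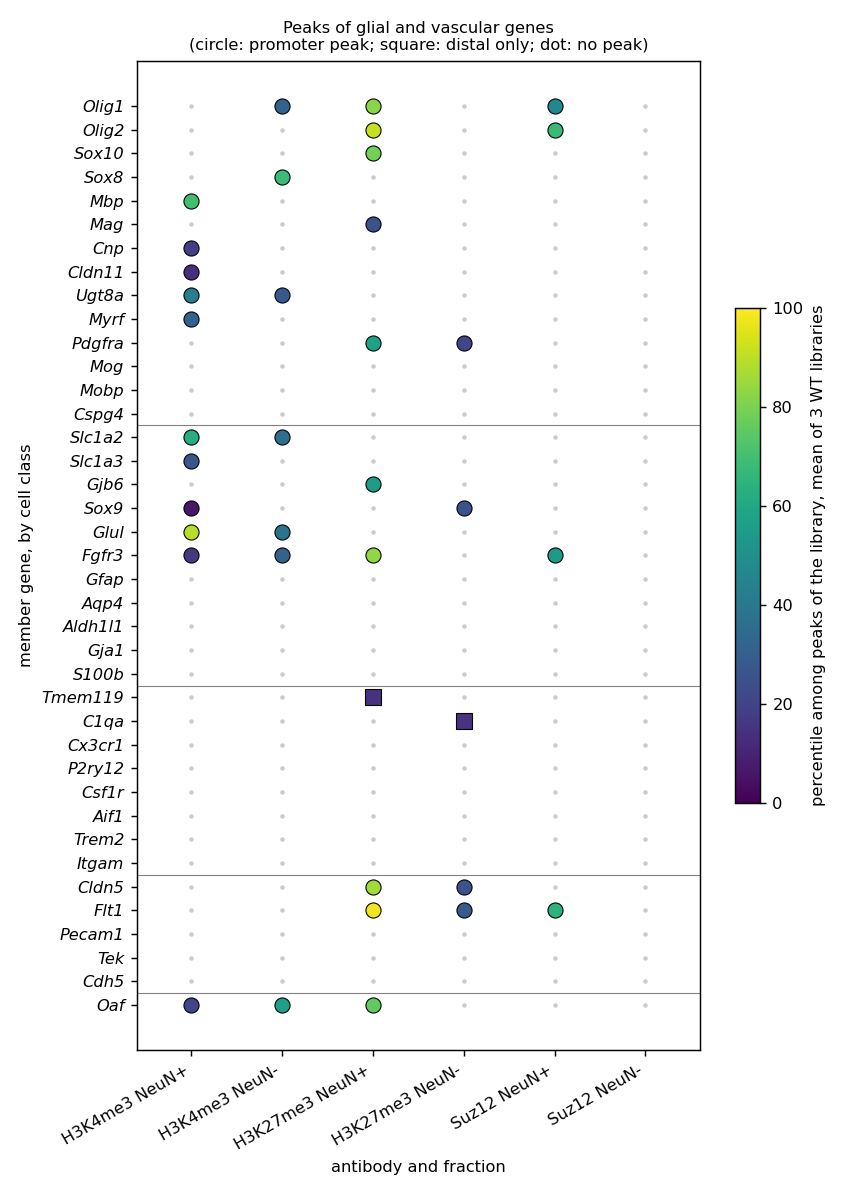
Peaks of the 39 members (rows, grouped as oligodendrocyte, astrocyte, microglia, endothelial and Oaf) in the 6 tables (columns); colour gives the percentile of the peak among all peaks of its library, averaged over the 3 WT libraries, for the promoter peak nearest to the start (circle) or, without one, the nearest distal peak (square). In NeuN+ nuclei Fgfr3 and Oaf carried both H3K4me3 and H3K27me3, and no member had a Suz12 peak in NeuN- nuclei.

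Promoters of the members with a peak held more CG dinucleotides than those of the members without. RefSeq promoters (GRCm38.p6, 250 bases before to 50 bases after the start) were matched for 28 of the 39 members. Aqp4, C1qa, Cdh5, Csf1r, Mbp, Myrf, Olig1, Pecam1, Sox10, Sox9 and Tmem119 had no entry. The dinucleotide CG, which reads the same on both strands, was counted in each, and 94.6% of the 32851 RefSeq promoters held at least 1. The 14 members with a peak of any antibody within 3000 bases of this start had a median of 19 CG (3 to 40), against 4.5 (1 to 17) in the 14 without and 7 over all RefSeq promoters. At least 10 CG were present in 10 of the 14 with a peak, in 1 of the 14 without (Cspg4) and in 43.5% of all. Slc1a2 counts among those without, since its RefSeq promoter lies 47370 bases downstream of the peak, which the files annotate to another start of the gene. These counts are a description of the windows and were not tested.

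The promoters of 6 members are shown 5′ to 3′ with every CG in capitals, to let the promoters of marked and unmarked genes be read side by side. Ugt8a, Fgfr3 and Oaf carried H3K4me3 in both fractions, Fgfr3 and Oaf carried H3K27me3 in NeuN+ nuclei as well, Olig2 carried H3K27me3 and Suz12 in NeuN+ nuclei, Cldn5 carried H3K27me3 in both fractions, and Mog had no peak. They lie at chr3:125938603-125938902 (minus strand), chr5:33721474-33721773 (plus), chr9:43239767-43240066 (minus), chr16:91225300-91225599 (plus), chr16:18776597-18776896 (plus) and chr17:37023349-37023648 (minus). Of these sequences, only that of Oaf overlaps a peak of its gene. Those of Ugt8a, Fgfr3, Olig2 and Cldn5 lie beside their peaks. Their starts are 510, 458, 716 and 755 bases from the nearest peak centre.
Ugt8a: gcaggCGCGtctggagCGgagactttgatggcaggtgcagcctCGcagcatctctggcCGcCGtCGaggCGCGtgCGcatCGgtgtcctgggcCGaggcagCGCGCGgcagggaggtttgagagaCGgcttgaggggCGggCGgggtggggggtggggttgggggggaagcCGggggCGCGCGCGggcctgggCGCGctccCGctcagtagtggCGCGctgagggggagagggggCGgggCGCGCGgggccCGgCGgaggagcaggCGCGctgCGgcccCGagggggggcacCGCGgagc
Fgfr3: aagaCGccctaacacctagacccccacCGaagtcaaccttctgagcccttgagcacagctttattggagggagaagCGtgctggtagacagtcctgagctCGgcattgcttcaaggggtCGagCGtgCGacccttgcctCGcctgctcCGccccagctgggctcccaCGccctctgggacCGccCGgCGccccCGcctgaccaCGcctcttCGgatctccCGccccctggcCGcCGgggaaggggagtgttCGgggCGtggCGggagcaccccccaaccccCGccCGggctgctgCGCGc
Oaf: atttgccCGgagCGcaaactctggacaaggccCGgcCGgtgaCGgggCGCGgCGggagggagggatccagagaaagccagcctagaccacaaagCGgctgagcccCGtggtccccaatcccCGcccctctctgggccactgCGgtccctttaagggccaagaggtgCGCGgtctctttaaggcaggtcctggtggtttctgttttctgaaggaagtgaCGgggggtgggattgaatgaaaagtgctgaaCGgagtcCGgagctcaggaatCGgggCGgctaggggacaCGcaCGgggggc
Olig2: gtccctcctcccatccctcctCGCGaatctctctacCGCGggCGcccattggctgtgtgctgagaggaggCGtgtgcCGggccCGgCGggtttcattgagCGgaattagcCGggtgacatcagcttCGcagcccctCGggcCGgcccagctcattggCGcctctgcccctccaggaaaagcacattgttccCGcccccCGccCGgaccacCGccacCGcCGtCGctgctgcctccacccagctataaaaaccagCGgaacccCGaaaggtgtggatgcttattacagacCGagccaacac
Cldn5: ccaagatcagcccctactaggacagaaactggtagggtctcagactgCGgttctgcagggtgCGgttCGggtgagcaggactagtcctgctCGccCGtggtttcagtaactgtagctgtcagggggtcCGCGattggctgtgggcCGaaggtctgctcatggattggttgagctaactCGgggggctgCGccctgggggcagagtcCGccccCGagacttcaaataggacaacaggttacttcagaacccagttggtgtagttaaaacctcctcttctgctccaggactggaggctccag
Mog: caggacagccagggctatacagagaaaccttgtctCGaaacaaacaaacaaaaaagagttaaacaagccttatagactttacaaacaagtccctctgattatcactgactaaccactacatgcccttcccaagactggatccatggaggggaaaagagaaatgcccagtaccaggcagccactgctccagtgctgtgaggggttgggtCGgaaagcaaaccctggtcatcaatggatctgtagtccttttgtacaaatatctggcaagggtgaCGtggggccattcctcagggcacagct
Ugt8a held 40 CG, Fgfr3 26, Olig2 25, Oaf 21, Cldn5 12 and Mog 3. Medians were 21 CG in the 8 members with H3K4me3 and 16.5 in the 8 with H3K27me3 or Suz12, groups that share Fgfr3 and Oaf.

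**Figure D2:**
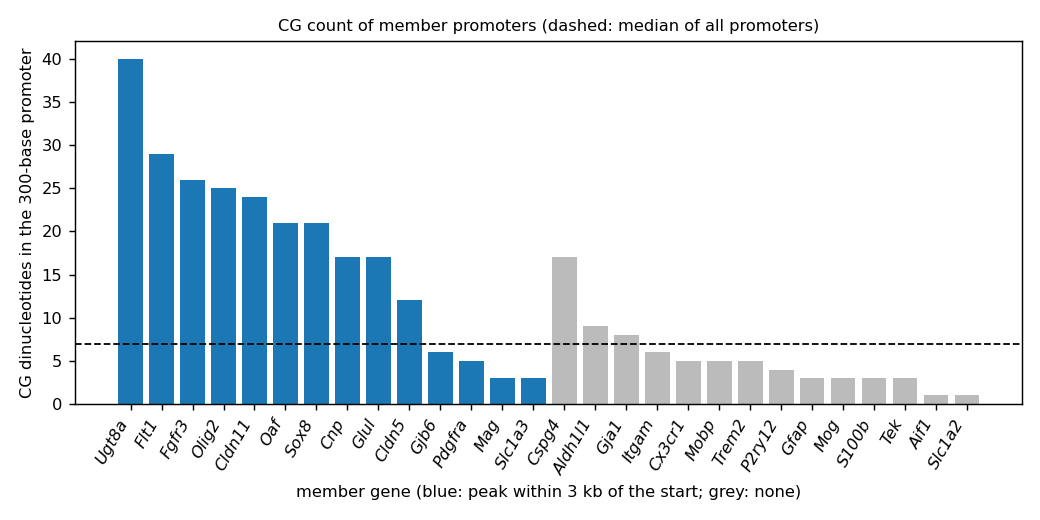
Number of CG dinucleotides in the 300-base RefSeq promoter of the 28 matched members, sorted within members with a peak within 3000 bases of the start (blue) and without (grey); the dashed line is the median of all RefSeq promoters, 7. Of the blue bars, 10 reach 10 or more, against 1 of the grey bars.

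In NeuN+ nuclei, H3K4me3 lay at the promoters of 5 oligodendrocyte genes, 5 astrocyte genes and Oaf. The oligodendrocyte genes were Mbp and Cldn11, which encode structural proteins of myelin, Cnp, a myelin enzyme, Ugt8a, the enzyme that makes the galactolipids of myelin, and Myrf, a transcription factor of myelination. The astrocyte genes were Slc1a2 and Slc1a3, the glutamate transporters, Glul, glutamine synthetase, Sox9, a glial transcription factor, and Fgfr3, a growth factor receptor. In WT, Glul was highest at 38.2 ± 13.5 (SD, n = 3), followed by Mbp at 29.1 ± 9.87, Slc1a2 at 25.6 ± 2.07 and Ugt8a at 20.4 ± 3.42. Lower values were found for Myrf at 17.8 ± 6.38, Slc1a3 at 15.4 ± 1.37, Oaf at 14.1 ± 5.30, Cnp at 12.8 ± 3.89, Fgfr3 at 12.7 ± 2.85 and Cldn11 at 11.5 ± 2.37, and Sox9 was lowest at 6.27 ± 6.02. Every neighbouring pair in this order overlapped within 1 SD. All member peaks are 401 bases wide, so these levels compare like lengths.

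Most of these marks were weak for the table. The median percentile of the 11 promoter peaks among all peaks of a WT library was 27.03, against 53.7 for all promoter peaks of the table and 50.0 for the 15 neuronal genes. Glul ranked highest, with percentiles of 81.5 to 97.5 in the 3 WT libraries. Mbp followed with 57.6 to 85.0 and Slc1a2 with 42.9 to 81.5, and these ranges overlapped or met. The Mbp peak lay at the start of the gene that the files annotate, 4 of its 16 GENCODE M21 transcripts starting within 3000 bases. The next start lies 78875 bases downstream, and the myelin transcripts of Mbp are known to begin at the downstream promoter, the upstream one serving the longer golli forms. No other peak in any table was assigned to Mbp. Slc1a3 and Fgfr3 each had a further distal H3K4me3 peak, at 73691 bases downstream and 25852 bases upstream of their starts, both outside any GENCODE gene.

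The 5 members with H3K4me3 in both fractions were Ugt8a, Slc1a2, Glul, Fgfr3 and Oaf. Their deposited values below are not comparable between fractions. The median WT percentile was higher in NeuN+ than in NeuN- nuclei for Ugt8a (40.1 and 25.2), Slc1a2 (61.1 and 20.8) and Glul (89.1 and 36.5). It was lower in NeuN+ than in NeuN- nuclei for Fgfr3 (17.6 and 36.5) and Oaf (15.1 and 50.7). These ranks were not tested. For Ugt8a, the NeuN+ peak (chr3:125937942-125938342, intron) held 23.2, 16.6 and 21.5 in WT, 10.9, 22.1 and 25.4 in Mutyh-/-, 32.1, 20.5 and 30.8 in Ogg1-/- and 11.3, 14.5 and 24.3 in DKO. The NeuN- peak shares 365 bases with it and held 2.77, 5.52 and 5.91 in WT, 13.3, 16.4 and 9.75 in Mutyh-/-, 14.8, 15.2 and 8.52 in Ogg1-/- and 13, 10.0 and 1.12 in DKO. In NeuN- nuclei the 3 WT libraries were the lowest apart from DKO replicate 3, and all Mutyh-/- and all Ogg1-/- libraries lay above them. The limma test did not call the difference (Mutyh-/- log2 fold change 1.33, SE 0.82, unadjusted p = 0.112, adjusted p = 1.00).

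Slc1a2, the main glutamate transporter of astrocytes, had its peak over the 5′ end at chr2:102658868-102659268, with values in NeuN+ nuclei of 24.4, 24.4 and 28 in WT, 15.3, 28.5 and 51.7 in Mutyh-/-, 40.5, 8.21 and 39.2 in Ogg1-/- and 31.6, 32.2 and 31.8 in DKO. In NeuN- nuclei they were 5.53, 11 and 2.36 in WT, 15.2, 16.4 and 13 in Mutyh-/-, 9.90, 4.79 and 5.68 in Ogg1-/- and 11.1, 5.00 and 4.47 in DKO. The Mutyh-/- libraries were all above WT in NeuN- nuclei, without a call (log2 fold change 1.30, SE 0.84, unadjusted p = 0.127, adjusted p = 1.00), and in NeuN+ nuclei the DKO libraries were all just above WT, while the Mutyh-/- and Ogg1-/- libraries fell on both sides (DKO log2 fold change 0.31, SE 0.48, unadjusted p = 0.527, adjusted p = 1.00).

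Glul, which turns glutamate into glutamine in astrocytes, gave 51.5, 24.4 and 38.8 in WT, 33.8, 34 and 33.3 in Mutyh-/-, 42.8, 29.7 and 29.2 in Ogg1-/- and 27.1, 46.6 and 40.2 in DKO in NeuN+ nuclei at chr1:153900214-153900614. The NeuN- peak lay further into the gene, sharing 87 bases, and gave 8.30, 6.30 and 5.91 in WT, 13.3, 7.78 and 21.1 in Mutyh-/-, 4.95, 10.4 and 21.3 in Ogg1-/- and 10.2, 3.57 and 7.82 in DKO. Every knockout group overlapped WT in both fractions.

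Fgfr3 had its NeuN+ peak at chr5:33721982-33722382 and its NeuN- peak at chr5:33722452-33722852, with 69 bases between the windows. In NeuN+ nuclei it held 15.4, 9.76 and 12.9 in WT, 12, 10.1 and 20.1 in Mutyh-/-, 17.9, 3.08 and 28.5 in Ogg1-/- and 4.51, 19.3 and 23.5 in DKO. In NeuN- nuclei it held 8.30, 4.73 and 4.73 in WT, 9.51, 6.05 and 17.9 in Mutyh-/-, 1.98, 3.19 and 2.84 in Ogg1-/- and 14.9, 4.29 and 5.59 in DKO, the Ogg1-/- libraries being the lowest 3 of the 12 (Ogg1-/- log2 fold change -0.89, SE 0.96, unadjusted p = 0.355, adjusted p = 0.999).

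Oaf, a secreted protein named after a fly homologue, held 14.1, 8.78 and 19.4 in WT, 12, 11 and 5.26 in Mutyh-/-, 4.76, 12.3 and 12.3 in Ogg1-/- and 9.02, 4.83 and 6.82 in DKO in NeuN+ nuclei at chr9:43239552-43239952. In NeuN- nuclei it held 16.6, 8.67 and 4.73 in WT, 15.2, 1.73 and 21.1 in Mutyh-/-, 20.8, 3.19 and 8.52 in Ogg1-/- and 14.9, 1.43 and 11.2 in DKO. In NeuN+ nuclei WT gave the highest mean and DKO the lowest, with DKO replicate 1 inside the WT range (log2 fold change -0.91, SE 0.68, unadjusted p = 0.191, adjusted p = 1.00), and the NeuN- libraries spread over more than the difference between any genotypes.

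Olig1 and Sox8 had H3K4me3 in NeuN- nuclei only, and they are described here by a choice made after their values were seen. Olig1 is a basic helix-loop-helix factor of the oligodendrocyte lineage, and Sox8 a relative of Sox9 and Sox10. The Olig1 peak (chr16:91270391-91270791, over coding and untranslated exon sequence) held 6.91, 7.09 and 3.55 in WT, 15.2, 12.1 and 3.25 in Mutyh-/-, 5.94, 12 and 14.2 in Ogg1-/- and 8.36, 4.29 and 6.70 in DKO. The Sox8 peak held 22.1, 11.8 and 4.73 in WT, 6.66, 6.91 and 8.13 in Mutyh-/-, 4.95, 0.798 and 14.2 in Ogg1-/- and 8.36, 2.14 and 5.59 in DKO. Olig1 knockout libraries fell on either side of WT, and for Sox8 the highest library was WT replicate 1 and the lowest Ogg1-/- replicate 2. Over the table, 8.26% of the NeuN- H3K4me3 peaks overlapped no NeuN+ H3K4me3 peak, and Olig1, Sox8 and Fgfr3 were among them, 3 of 7. In WT the 7 members had a median percentile of 36.2, against 51.1 for all promoter peaks.

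**Figure D3:**
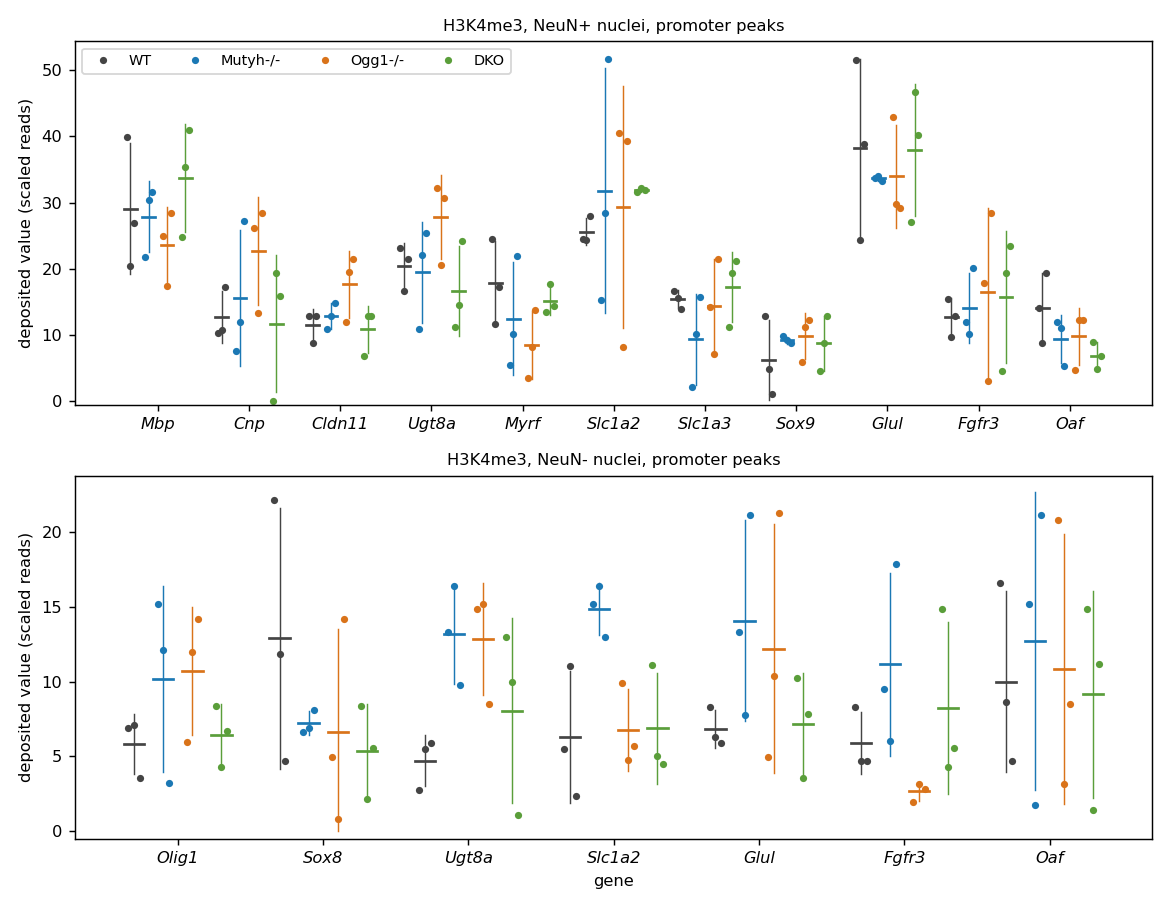
Deposited H3K4me3 values (reads scaled per library) of each member promoter peak in NeuN+ nuclei (top, 11 genes) and NeuN- nuclei (bottom, 7 genes); points are libraries, coloured by genotype, short horizontal lines the mean and vertical lines 1 SD to each side, drawn no lower than 0 (n = 3). The axes differ because the tables were scaled separately, and the genotypes overlap for most genes.

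In NeuN+ nuclei, H3K27me3 promoter peaks lay at Olig1, Olig2, Sox10, Mag and Pdgfra of the oligodendrocyte lineage, Fgfr3 and Gjb6 of astrocytes, Cldn5 and Flt1 of endothelium, and Oaf. Their median percentile in WT libraries was 80.5, above the 64.3 of all promoter peaks of the table and the 72.2 of the 4 neuronal genes with such a peak. The 7 other glial and vascular genes with such a peak had a median of 44.7, below that of all promoter peaks. Of the 1047 genes with an H3K27me3 promoter peak in NeuN+ nuclei, 26.3% also had a Suz12 promoter peak and 34.3% also had H3K4me3. Among the 10 members, 4 had Suz12 (Olig1, Olig2, Fgfr3 and Flt1) and 2 had H3K4me3 (Fgfr3 and Oaf). In NeuN- nuclei, 7.93% of the 1047 genes had an H3K4me3 promoter peak, as had 3 of the 10 members (Fgfr3, Oaf and Olig1).

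Olig1 carried H3K4me3 in NeuN- nuclei and the polycomb marks in NeuN+ nuclei. The NeuN- H3K4me3 window shares 267 bases with the NeuN+ Suz12 window (chr16:91270257-91270657) and ends 934 bases before the NeuN+ H3K27me3 window (chr16:91271726-91272126, untranslated exon sequence). H3K27me3 there was 8.76, 9.96 and 12.9 in WT, 5.07, 6.64 and 6.99 in Mutyh-/-, 2.97, 10.5 and 7.19 in Ogg1-/- and 7.65, 1.94 and 2.41 in DKO. All Mutyh-/- and DKO libraries lay below WT, and limma did not call it (DKO log2 fold change -1.37, SE 0.84, unadjusted p = 0.103, adjusted p = 0.998).

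A distal Olig1 peak, 32024 bases downstream of the start in an intron of Gm15966, held 7.67, 8.86 and 11.2 in WT, 8.11, 13.3 and 11 in Mutyh-/-, 4.95, 6.27 and 4.11 in Ogg1-/- and 0, 4.85 and 6.42 in DKO. There the Ogg1-/- and DKO libraries were all below WT (DKO log2 fold change -1.53, SE 0.84, unadjusted p = 0.0699, adjusted p = 0.998). Suz12 at Olig1 was 2.68, 8.91 and 24.2 in WT, 2.46, 8.29 and 4.06 in Mutyh-/-, 0.991, 28.3 and 16 in Ogg1-/- and 4.25, 16.7 and 18.1 in DKO, and its WT libraries alone spanned most of the range.

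Olig2, the partner of Olig1 and a determinant of the oligodendrocyte lineage, had H3K27me3 at chr16:91226066-91226466 with 11, 15.5 and 15.5 in WT, 0, 19.9 and 19 in Mutyh-/-, 3.96, 7.32 and 15.4 in Ogg1-/- and 2.19, 11.6 and 17.6 in DKO. Replicate 1 was the lowest library in each of the 3 knockouts, with 0 in Mutyh-/-. The upstream peak, 48726 bases before the start, held 11, 9.96 and 5.17 in WT, 5.07, 3.32 and 9.99 in Mutyh-/-, 0.991, 3.14 and 2.06 in Ogg1-/- and 3.28, 3.88 and 9.63 in DKO, with all Ogg1-/- libraries below WT (log2 fold change -1.67, SE 0.92, unadjusted p = 0.0683, adjusted p = 0.983).

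Suz12 had peaks on either side of the Olig2 start. The downstream peak (chr16:91226594-91226994, coding exon) held 17.4, 25.7 and 8.05 in WT, 4.92, 26.9 and 24.3 in Mutyh-/-, 5.95, 21.2 and 16.9 in Ogg1-/- and 3.40, 29.2 and 19.7 in DKO. The upstream peak, 2457 bases before the start in Gm49614, held 1.34, 14.9 and 21.5 in WT, 4.92, 16.6 and 14.2 in Mutyh-/-, 8.92, 14.1 and 11.3 in Ogg1-/- and 6.80, 10.4 and 15.8 in DKO. Replicate 1 was the lowest library of each knockout at both, and the genotypes overlapped.

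Sox10, a transcription factor required in oligodendrocytes, had H3K27me3 in an intron at chr15:79162426-79162826 with 8.76, 12.2 and 8.62 in WT, 10.1, 8.85 and 5.99 in Mutyh-/-, 4.95, 4.18 and 21.6 in Ogg1-/- and 1.09, 9.69 and 7.22 in DKO. Pdgfra, the receptor that marks oligodendrocyte precursors, had it at chr5:75150699-75151099, 1193 bases before the start, with 0, 7.75 and 13.8 in WT, 1.01, 13.3 and 9.99 in Mutyh-/-, 0, 11.5 and 10.3 in Ogg1-/- and 4.37, 4.85 and 11.2 in DKO. WT replicate 1 and Ogg1-/- replicate 1 had no read at Pdgfra, so that its WT libraries ran from the lowest to the highest of the 12 values.

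Mag, a myelin-associated glycoprotein, had a promoter peak that is 85.0% repeat sequence, with 3.29, 0 and 3.45 in WT, 0, 9.95 and 5.00 in Mutyh-/-, 6.94, 0 and 6.17 in Ogg1-/- and 2.19, 0 and 5.62 in DKO. A second peak over its exons held 0, 5.54 and 6.03 in WT, 0, 1.11 and 5.00 in Mutyh-/-, 6.94, 0 and 7.19 in Ogg1-/- and 6.56, 13.6 and 13.6 in DKO, all DKO libraries being above WT (log2 fold change 1.71, SE 1.02, unadjusted p = 0.0923, adjusted p = 0.998). In both Mag peaks some libraries of WT and of the knockouts were at 0.

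For astrocytes, Gjb6, a connexin of astrocyte gap junctions, had H3K27me3 over its 5′ end (chr14:57133060-57133460) with 13.1, 4.43 and 2.59 in WT, 7.10, 17.7 and 16 in Mutyh-/-, 5.95, 10.5 and 3.08 in Ogg1-/- and 0, 4.85 and 16 in DKO. Fgfr3 had H3K27me3 at chr5:33722536-33722936, 153 bases from its H3K4me3 window in the same fraction and sharing 360 bases with its Suz12 window. It held 6.57, 12.2 and 23.3 in WT, 3.04, 16.6 and 5.00 in Mutyh-/-, 0, 14.6 and 20.6 in Ogg1-/- and 6.56, 6.79 and 7.22 in DKO. The WT libraries of Fgfr3 ran from 6.57 to the highest of the 12, and every knockout group overlapped them.

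The distal Fgfr3 H3K27me3 peak, 25778 bases upstream, shares 327 bases with the distal H3K4me3 peak of the same nuclei and held 13.1, 15.5 and 12.9 in WT, 12.2, 6.64 and 16 in Mutyh-/-, 0.991, 5.23 and 10.3 in Ogg1-/- and 5.46, 0.969 and 17.6 in DKO. All Ogg1-/- libraries were below WT (log2 fold change -1.51, SE 0.78, unadjusted p = 0.0539, adjusted p = 0.983). Suz12 at the Fgfr3 promoter was 2.68, 31.7 and 10.7 in WT, 3.28, 8.29 and 10.1 in Mutyh-/-, 0, 10.6 and 9.40 in Ogg1-/- and 5.10, 9.39 and 17.3 in DKO, with WT replicate 2 the highest library. In a pool of nuclei, an active and a repressive mark at neighbouring windows cannot be assigned to the same or to different nuclei.

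Flt1, a receptor for vascular endothelial growth factor, had the highest H3K27me3 of the members in WT. The promoter peak (chr5:147725205-147725605, intron) held 21.9, 18.8 and 19.8 in WT, 2.03, 14.4 and 21 in Mutyh-/-, 11.9, 17.8 and 21.6 in Ogg1-/- and 5.46, 10.7 and 16 in DKO. Its percentiles in WT were 97.5 to 98.2, and all DKO libraries lay below WT without a call (log2 fold change -0.96, SE 0.68, unadjusted p = 0.160, adjusted p = 0.998).

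Of the other 3 Flt1 peaks, that nearest the start lies 24341 bases upstream, is 60.1% repeat sequence and held 2.19, 9.96 and 1.72 in WT, 5.07, 8.85 and 11 in Mutyh-/-, 4.95, 11.5 and 11.3 in Ogg1-/- and 2.19, 0.969 and 13.6 in DKO. The remaining pair lies inside the gene, with WT means of 5.10 ± 1.27 and 2.54 ± 2.26 (SD, n = 3). Suz12 at the Flt1 start (chr5:147725924-147726324) was 6.70, 23.8 and 17.4 in WT, 3.28, 13.5 and 16.2 in Mutyh-/-, 7.93, 10.6 and 16.9 in Ogg1-/- and 4.25, 10.4 and 25.2 in DKO, replicate 1 being lowest in every genotype.

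Cldn5, the claudin of blood-brain barrier tight junctions, had H3K27me3 in NeuN+ nuclei at chr16:18777402-18777802 with 9.86, 12.2 and 12.9 in WT, 7.10, 18.8 and 19 in Mutyh-/-, 21.8, 8.36 and 12.3 in Ogg1-/- and 12, 5.82 and 17.6 in DKO. Its percentiles ran from 58.4 to 98.8 over the 12 libraries, and every knockout group overlapped WT. Oaf had H3K27me3 over its start at chr9:43239807-43240207, sharing 146 bases with the NeuN+ H3K4me3 window, with 11, 14.4 and 5.17 in WT, 6.09, 11.1 and 12 in Mutyh-/-, 0.991, 9.41 and 16.4 in Ogg1-/- and 4.37, 4.85 and 16 in DKO. Every knockout group overlapped WT at Oaf.

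Tmem119, a surface protein by which microglia are told from other macrophages, had a single H3K27me3 peak in NeuN+ nuclei, over its coding exon 4766 bases from the start (chr5:113795280-113795680). It held 0, 2.21 and 0 in WT, 11.2, 7.74 and 5.99 in Mutyh-/-, 5.95, 4.18 and 7.19 in Ogg1-/- and 4.37, 1.94 and 8.02 in DKO. The WT libraries were nearly empty, and all Mutyh-/- and Ogg1-/- libraries exceeded them, as did DKO apart from replicate 2.

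**Figure D4:**
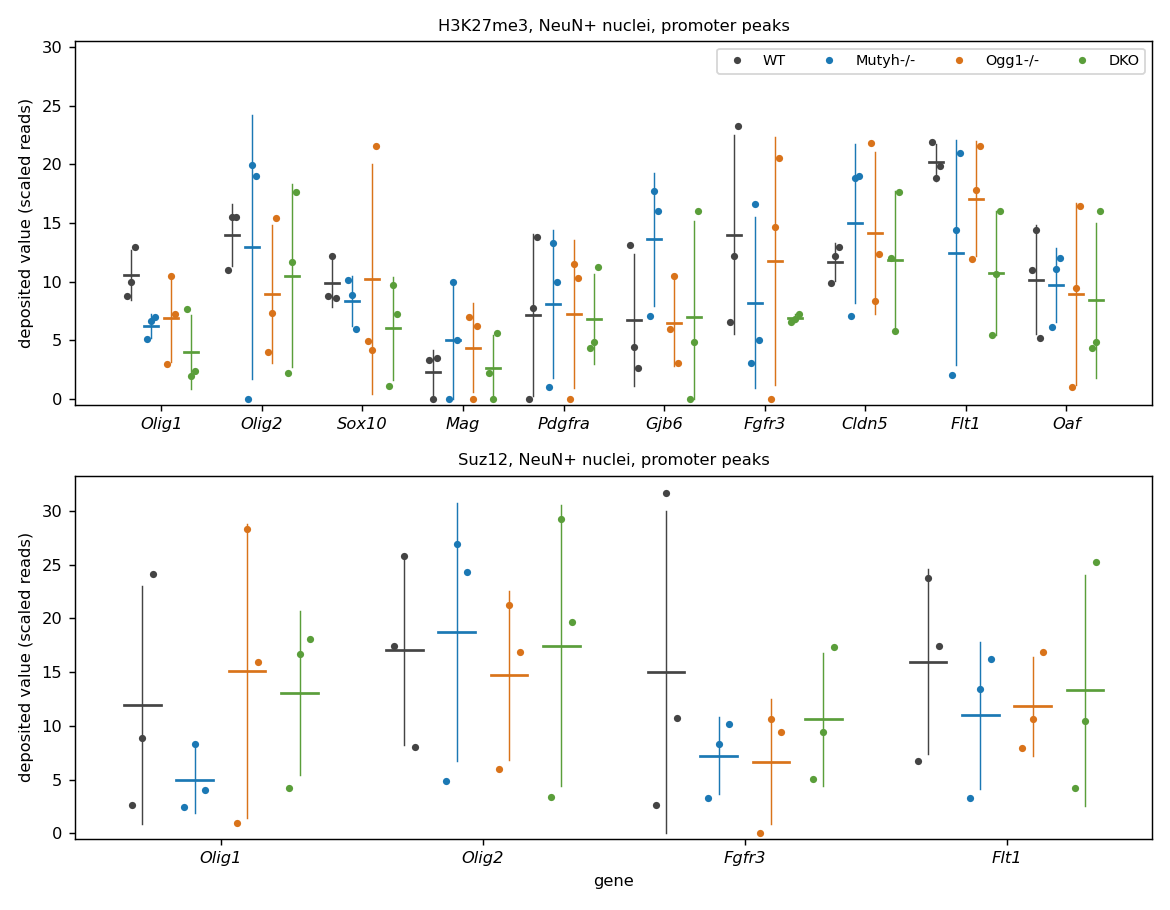
Deposited values of the member promoter peaks of H3K27me3 (top, 10 genes) and Suz12 (bottom, 4 genes) in NeuN+ nuclei; points are libraries coloured by genotype, short horizontal lines the mean and vertical lines 1 SD to each side, drawn no lower than 0 (n = 3). Flt1 is the highest H3K27me3 promoter in WT, and replicate 1 of the knockouts often lies at the bottom.

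Replicate 1 of the knockouts also had the most empty peaks in the H3K27me3 table of NeuN+ nuclei, 26.7% in Mutyh-/-, 23.98% in Ogg1-/- and 23.1% in DKO, against 5.23% to 17.96% in the other 9 libraries. The part of this in the member values was not tested.

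In NeuN- nuclei H3K27me3 lay at 4 member promoters, Pdgfra, Sox9, Cldn5 and Flt1, and 20543 bases upstream of C1qa, a complement gene of microglia. The 4 promoters had a median WT percentile of 25.04, against 54.9 for all promoter peaks, and the 3 other endothelial genes with such a peak (Erg, Sox17 and Sox18) had 66.8. Only the Cldn5 window overlapped its NeuN+ counterpart, by 130 bases, while 85.3% of the NeuN- H3K27me3 peaks overlapped no NeuN+ peak. By presence of a peak in any genotype, Sox9 had the arrangement opposite to Olig1, with H3K4me3 in NeuN+ nuclei and H3K27me3 in NeuN- nuclei. Both Sox9 peaks were near the floor in WT, and their windows do not overlap. The H3K27me3 peak held 2 reads over the WT libraries together, and the H3K4me3 peak was the lowest of the member promoters at 6.27 ± 6.02.

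Cldn5 held 0, 0 and 2.31 in WT, 12.5, 0 and 0 in Mutyh-/-, 16.7, 0 and 10.7 in Ogg1-/- and 7.80, 5.55 and 7.95 in DKO. Sox9, at chr11:112783572-112783972 in its coding sequence, held 0, 1.66 and 0 in WT, 3.84, 1.06 and 0 in Mutyh-/-, 6.14, 4.90 and 4.77 in Ogg1-/- and 0.867, 0 and 5.68 in DKO. Flt1 held 3.97, 0 and 0 in WT, 7.69, 8.45 and 2.31 in Mutyh-/-, 7.01, 0.817 and 1.19 in Ogg1-/- and 1.73, 0 and 0 in DKO. No WT library exceeded 3.97 at these peaks. The highest Cldn5 values were in Mutyh-/- replicate 1, Ogg1-/- replicates 1 and 3 and DKO, whereas Mutyh-/- replicates 2 and 3 and Ogg1-/- replicate 2 had no read.

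Pdgfra had a peak just before its start with 0, 0 and 1.15 in WT, 4.80, 0 and 0 in Mutyh-/-, 7.01, 0 and 8.35 in Ogg1-/- and 6.94, 0.925 and 1.14 in DKO. Its second peak, at an internal start, held 1.32, 4.15 and 0 in WT, 6.73, 3.17 and 4.62 in Mutyh-/-, 0, 0 and 2.38 in Ogg1-/- and 1.73, 1.85 and 5.68 in DKO. C1qa held 0, 0 and 0 in WT, 7.69, 7.39 and 0 in Mutyh-/-, 1.75, 0 and 13.1 in Ogg1-/- and 3.47, 0 and 0 in DKO, with no read in any WT library. The 4 libraries with the fewest empty peaks in this table also held most of the higher member values, with 8.01% empty in Mutyh-/- replicate 1, 6.24% and 9.95% in Ogg1-/- replicates 1 and 3 and 9.07% in DKO replicate 1, against 25.8% to 36.3% in WT. The part of this in the knockout comparisons was not tested.

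Each knockout was compared with WT to ask whether loss of the glycosylases altered these marks. A differentially enriched region (DER) was a peak with an unadjusted p under 0.05 and a log2 fold change beyond 0.5 in either direction. These are the thresholds of the study, which used them with edgeR, applied here to limma, and adjusted p-values are Benjamini-Hochberg values over all peaks of the table. The 3 comparisons of a table share their WT libraries. The share of all peaks with every library of a knockout on 1 side of WT was not counted. Such remarks on member peaks are description only. Over 147 tests of 49 peaks in 15 comparisons, 5 were DERs, in 4 peaks, and none had an adjusted p under 0.05, the smallest being 0.915. The DERs were 3.40% of the member tests, against 2.06% of the tests of all peaks, of which 0.0222% had an adjusted p under 0.05. These pooled shares mix the tables in unlike proportions. H3K4me3 in NeuN+ nuclei, where DERs were rarest, gave 13 of the 49 member peaks but 12628 of the 22815 peaks of the series. The shares per table are given below. Each of the 4 DER peaks held at most 2 reads over the 3 WT libraries together. The tables do not say in which genotype a consensus peak was called, and a peak that entered through knockout libraries alone had to lie above WT, so these 5 calls and their direction are a description and no support for a change. edgeR called 5 DERs and DESeq2 6, with no adjusted call in either, of which 3 were shared by all (Tmem119 in Mutyh-/- and in Ogg1-/- and C1qa in Mutyh-/-).

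For H3K4me3 in NeuN+ nuclei, 0 of 13 member peaks were DERs in each knockout, and 0 had an unadjusted p under 0.05, where 0.911% (Mutyh-/-), 0.966% (Ogg1-/-) and 1.46% (DKO) of all peaks were DERs. edgeR and DESeq2 each called 1, Myrf in Ogg1-/-, named after its values were seen, which held 24.4, 11.7 and 17.2 in WT, 5.45, 10.1 and 21.9 in Mutyh-/-, 3.57, 8.21 and 13.8 in Ogg1-/- and 13.5, 17.7 and 14.4 in DKO and overlapped WT (limma log2 fold change -1.08, SE 0.63, unadjusted p = 0.0947, adjusted p = 1.00). The median log2 fold changes of the members were 0.03, -0.04 and 0.05, beside -0.07, 0.08 and -0.02 for all peaks. In NeuN- nuclei 0 of 7 were DERs, with 0 at an unadjusted p under 0.05 and 0 by edgeR or DESeq2, where 2.94%, 3.36% and 2.29% of all peaks were. The member medians there were 0.73, 0.22 and 0.13, beside 0.22, 0.25 and 0.05.

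For H3K27me3 in NeuN+ nuclei, 1 of 18 member peaks was a DER in Mutyh-/- and 1 in Ogg1-/-, the Tmem119 peak in both, and 0 in DKO. Background shares were 3.78%, 3.82% and 3.36%. Tmem119 was above WT in all 3 Mutyh-/- libraries (log2 fold change 2.62, SE 1.00, unadjusted p = 0.00889, adjusted p = 0.998), with a ratio of scaled reads of 12.4 (95% exact interval 3.07 to 108, from 2 WT reads and 24 knockout reads). It was also above WT in all 3 Ogg1-/- libraries (log2 fold change 2.17, SE 1.00, unadjusted p = 0.0299, adjusted p = 0.983), with a ratio of 8.61 (95% exact interval 2.04 to 76.8, from 2 WT reads and 17 knockout reads). The intervals cover counting error only. Without WT replicate 1 or 3, or Ogg1-/- replicate 1 or 3, the Ogg1-/- call was lost (unadjusted p up to 0.0769), while the Mutyh-/- call held without any 1 library (0.00234 to 0.0364 over its alternatives, limma, edgeR and DESeq2).

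In the same table the Olig1, Olig2, Fgfr3 and Flt1 peaks that lay below WT did not pass the rule. Under other settings some did, the distal Fgfr3 peak in Ogg1-/- and the distal Olig1 peak in DKO with TMM factors in limma, and the upstream Olig2 peak in Ogg1-/- with DESeq2. The member medians were -0.12, -0.28 and -0.46, beside -0.21, -0.11 and -0.01 for all peaks. Of the 18 member peaks, 10 lie at promoters, and the medians of all promoter peaks were -0.30, -0.25 and -0.09. The 18 peaks belong to 11 genes and are not independent.

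For H3K27me3 in NeuN- nuclei, 1 of 6 member peaks was a DER in each knockout, C1qa in Mutyh-/-, Sox9 in Ogg1-/- and Cldn5 in DKO, where 2.00%, 4.18% and 2.30% of all peaks were. C1qa was at least 1.52-fold higher in Mutyh-/- than a floor of 3 reads per WT library (unadjusted p = 0.0477, adjusted p = 0.998, limma), with 2 of 3 libraries above 0. Sox9 was higher in all 3 Ogg1-/- libraries (log2 fold change 2.17, SE 1.10, unadjusted p = 0.0481, adjusted p = 0.963), with a ratio of 7.51 (95% exact interval 1.78 to 67, from 2 WT reads and 17 knockout reads). Cldn5 was higher in all 3 DKO libraries (log2 fold change 2.43, SE 1.16, unadjusted p = 0.0363, adjusted p = 1.00), with a ratio of 9.99 (95% exact interval 2.46 to 87.6, from 2 WT reads and 22 knockout reads). The C1qa call was lost without any 1 of WT replicates 1, 2 and 3, Mutyh-/- replicates 1 and 2, Ogg1-/- replicate 1 and DKO replicates 2 and 3, with unadjusted p up to 0.163 over all its alternatives. The Sox9 call was lost without any 1 of WT replicates 1 and 3, Mutyh-/- replicates 2 and 3, Ogg1-/- replicates 1, 2 and 3 and DKO replicate 1 (up to 0.181), and by edgeR and DESeq2. The Cldn5 call was lost without WT replicate 1 or 2 or DKO replicate 1 or 3 (up to 0.103), and by edgeR and DESeq2. The member medians were 0.99, 1.73 and 0.73, beside 0.29, 0.58 and 0.41 for all peaks, which were themselves shifted upward, and the member medians hold these peaks.

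For Suz12 in NeuN+ nuclei, 0 of 5 member peaks were DERs, 0 had an unadjusted p under 0.05 and 0 were called by edgeR or DESeq2, where 5.16%, 3.74% and 2.58% of all peaks were DERs. The lowest member p was 0.311, at Fgfr3 in Ogg1-/- (log2 fold change -1.18, SE 1.17, unadjusted p = 0.311, adjusted p = 0.915). The member medians were -0.56, -0.23 and -0.09, beside -0.63, -0.57 and -0.06.

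**Figure D5:**
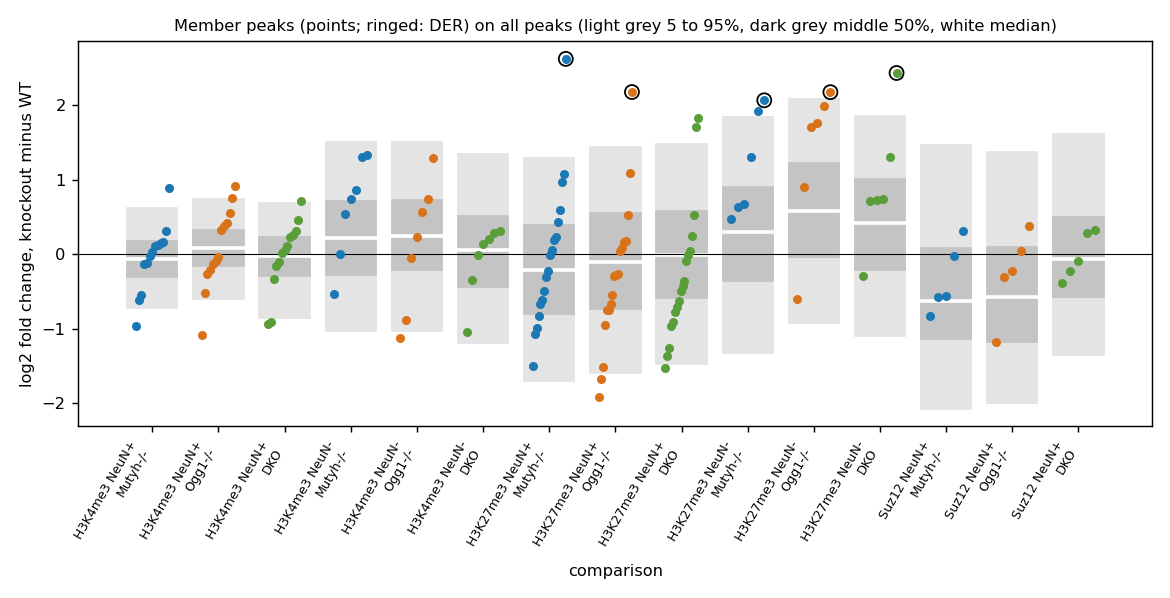
Log2 fold change of each member peak (points, coloured by knockout) in the 15 comparisons with WT, over the middle 90% (light grey), middle 50% (dark grey) and median (white) of all peaks of the table; rings mark the 5 DERs. Most members lie within the grey range of their table, and the ringed peaks are all H3K27me3 peaks with WT values at or near 0.

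Whether a knockout effect differed between fractions was tested where the windows of both fractions overlapped. Among 3000 such pairs for H3K4me3, the 4 member pairs (Ugt8a, Slc1a2, Glul and Oaf) gave 0 unadjusted p under 0.05 in limma, where 2.30% (Mutyh-/-), 1.80% (Ogg1-/-) and 1.80% (DKO) of all pairs did. The largest member difference was for Ugt8a in Mutyh-/-, 1.46 log2 units higher in NeuN- nuclei (SE 0.92, unadjusted p = 0.119, adjusted p = 0.999, limma). Among 249 pairs for H3K27me3, Cldn5 was the 1 member pair and did not pass, where 2.01%, 2.41% and 0.803% of all pairs did (DKO difference 2.52, SE 1.41, unadjusted p = 0.0866, adjusted p = 0.962, limma). No Suz12 pair belonged to a member. Both fractions were collected in the sort, and the fit took their libraries as independent. A pairing of same-numbered libraries between the fractions was not modelled.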

How the data were processed

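ChIP-seq of H3K4me3, H3K27me3 and Suz12 was analysed in sorted hippocampal nuclei. Per the labels and the study's methods, the authors aligned reads to GRCm38 with Bowtie2 (2.3.5.1 in the submitters' processing notes), called peaks with epic2 (the notes name SICER), kept consensus peaks, counted reads in 401-base windows with DiffBind (3.10.1) and edgeR (3.42.4) and annotated the windows with ChIPseeker (1.36). The deposited values are a signal, reads per peak divided by a factor of each library: 100% of the values in each library were whole multiples of that factor within a relative tolerance of 1e-06, so reads were recovered by division. The 24 input libraries were not used here.

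The test was limma (3.58.1, R 4.3.3) with an intensity trend on log2(value + 1), over the 12 libraries of a table, with Benjamini-Hochberg adjustment over all its peaks. Fold changes are on that scale and understate those of low peaks. Each table was fitted alone, without a block for the replicate number. Alternatives were pseudocounts of 0.5 and 5, removal of the lowest 25% of peaks, robust empirical Bayes, TMM scaling, edgeR (4.0.16) and DESeq2 (1.42.0) on the recovered reads, promoter peaks only, a replicate block and leaving out each library. The code was tested on simulated data. Counting intervals are exact, 95%, and cover counting error only. The labels do not say how the pools of a genotype relate, so p-values measure only the spread between these samples, which may be technical. Same-numbered WT and knockout libraries were paired in 1 of 18 comparisons, Suz12 in NeuN+ nuclei, Mutyh-/- against WT. Every correlation of same-numbered deviations there was between 0.119 and 0.388. The call count of the members in that comparison was the same with the block. Pairing among the knockouts was not checked.

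Per-library values are given for members with promoter peaks in both fractions for an antibody, for up to 2 H3K27me3 or Suz12 peaks of a member nearest its start, for DERs and for Oaf. The members and gene lists were chosen with earlier results of these data known. Promoters came from RefSeq and transcripts from GENCODE M21, both on GRCm38.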

Additional observations from a re-analysis of the deposited data

How the results depend on the processing

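No member peak had an adjusted p under 0.05 in limma, edgeR or DESeq2 under any alternative, nor did the count of DERs change for H3K4me3 in NeuN- nuclei (0) or Suz12 in NeuN+ nuclei (0). Of 158 values recomputed, 123 stayed within 1.5 times the reported count or 1 SD of the reported level. For H3K4me3 in NeuN+ nuclei the 0 member DERs became 1 with TMM factors in limma, with edgeR and with DESeq2, and 0 to 1 on leaving out each library (1 without Mutyh-/- replicate 3, Ogg1-/- replicate 3 or DKO replicate 2). For H3K27me3 in NeuN+ nuclei, member peaks that were a DER in at least 1 knockout went from 1 to 3 with TMM factors, 2 with DESeq2 and 0 with promoter peaks only, and from 1 to 3 on leaving out each library (over 1 without Mutyh-/- replicate 2 or 3, Ogg1-/- replicate 3 or any DKO replicate). For H3K27me3 in NeuN- nuclei the 3 became 1 with a pseudocount of 0.5, without the lowest 25% of peaks, with edgeR, with DESeq2 and with promoter peaks only, and 1 to 3 on leaving out each library (1 without any WT replicate, Mutyh-/- replicate 2, Ogg1-/- replicate 1 or DKO replicate 1 or 3). The causes were not tested. With the replicate number as a block, the count for H3K27me3 in NeuN+ nuclei was 4, and no other member count moved by over 1.5 times. In that table same-numbered WT and knockout libraries were not paired. Knockouts were not checked against each other, and their replicate 1 libraries had the most empty peaks there. The median WT percentile of member promoters ran from 24.04 to 32.1 for H3K4me3 in NeuN+ nuclei and from 33.9 to 39.6 in NeuN- nuclei on leaving out each WT library. Ranked among promoter peaks only, it was 35.1 for H3K4me3 in NeuN- nuclei and 66.2 for H3K27me3 in NeuN+ nuclei, beside 80.5 among all peaks. Median reads per peak of 1 to 9 in the H3K27me3 libraries limit what can be detected there. The Suz12 table of NeuN- nuclei held no member peak and gave no alternative.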
